A study of Arabidopsis thaliana with 6 samples.

Results

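Cyclins A, B and D, the cyclin-dependent kinases (CDKs) CDKA and CDKB, their inhibitors, the E2F factors with RBR1, the MCM helicase, PCNA and licensing genes, both listed ribonucleotide reductase genes, KNOLLE and CDC20.1 were treated as the cell cycle and DNA replication genes. They were found by a list of gene identifiers, which names 49 of the 32678 genes in the deposited count table, and all 49 were in it. Wild-type Arabidopsis thaliana (genotype WT in the labels) stood on plates of MS, a mineral culture medium, for 7 days, and RNA was sequenced after a further 12 h without melatonin (control), with 100 µM or with 1000 µM of this indoleamine. Each group had 2 libraries, and all were from wild-type plants labelled as leaf, whereas the title of the series speaks of root growth. The labels do not say that a group's libraries are from different plants, so p-values measure the spread between libraries, which may be technical. In such bulk RNA, fewer dividing cells and less RNA per cell cannot be told apart.

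Plant cells enter the cycle when D-type cyclins bind CDKA and the complex phosphorylates RBR1, the retinoblastoma protein, which otherwise holds E2F factors in check. E2F factors then act on genes of DNA synthesis, among them the MCM helicase and ribonucleotide reductase, while A-type and B-type cyclins with CDKB kinases carry the cell through G2 and mitosis. In young leaves most division takes place early, and many cells later copy DNA without dividing (endoreduplication), a switch on which CDK inhibitors of the KRP and SIM families and the CYCA2 cyclins act.

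Regulatory stretches of genes of DNA synthesis, of RBR1 and of B-type cyclins are shown because the levels of these classes are set side by side below. They were read from RefSeq's assembly TAIR10.1 at the gene starts of its own annotation, since the submitters' processing notes name TAIR10 and no genome labelled so was used here. All lines run 5′ to 3′ along the strand of the gene. Capitals mark a match, on either strand, to one of 4 words bound by E2F factors (TTTCCCGC, TTTCGCGC, TTTGCCGC or TTTGGCGC). The first 6 lines are stretches of 60 bases from the 250 bases before the gene start, and the last 2 are stretches of 28 bases that lie inside the annotated gene, before the start codon.
MCM2 (AT1G44900, chr1:16970154-16970213, plus strand): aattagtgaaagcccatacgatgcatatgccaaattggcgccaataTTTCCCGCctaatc
MCM3 (AT5G46280, chr5:18773843-18773902, minus strand): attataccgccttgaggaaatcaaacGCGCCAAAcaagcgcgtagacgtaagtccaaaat
MCM4 (AT2G16440, chr2:7130731-7130790, minus strand): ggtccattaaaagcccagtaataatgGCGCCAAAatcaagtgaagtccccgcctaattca
MCM5 (AT2G07690, chr2:3527501-3527560, minus strand): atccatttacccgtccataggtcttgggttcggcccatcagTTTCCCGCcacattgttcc
MCM6 (AT5G44635, chr5:18010680-18010739, minus strand): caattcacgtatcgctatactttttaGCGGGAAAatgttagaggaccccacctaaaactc
RBR1 (AT3G12280, chr3:3919402-3919461, minus strand): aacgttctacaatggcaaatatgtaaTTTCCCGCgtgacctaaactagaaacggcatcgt
TSO2 (AT3G27060, chr3:9981513-9981540, minus strand): taaaacacatTTTGGCGCgtgtaacatc
RNR1 (AT2G21790, chr2:9293261-9293288, plus strand): ctagaagctgGCGGGAAAatcccaaaac

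An E2F word stood in the 250 bases before the start in 5 of 6 MCM genes, in RBR1 and in CYCD3;3 (AT3G50070), which makes 7 of 49 members or 14.3%, against 387 of 27443 protein-coding nuclear genes or 1.41%. In the 500 bases before the start codon, a window chosen after the first was seen, 13 of 49 members or 26.5% had one, against 2.95% of all genes. These were all 6 MCM genes, both listed ribonucleotide reductase genes, CDC6, CDT1A, CDKB1;1, CYCD3;3 and CYCD3;1. RBR1 had none in that second window. A match is a description of these letters and not of binding.

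The B-type cyclins are shown for the longer core of the mitosis-specific activator element, CNAACGG, which MYB3R factors bind at genes of G2 and M phase. Each line is a stretch of 60 bases from the 250 bases before the gene start, with the core on either strand in capitals. The stretch holds the core farthest from the start, and 3 further cores of CYCB1;2 and 1 of CYCB2;2 lie outside it.
CYCB1;1 (AT4G37490, chr4:17624337-17624396, minus strand): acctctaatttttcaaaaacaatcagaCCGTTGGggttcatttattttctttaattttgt
CYCB1;2 (AT5G06150, chr5:1861816-1861875, minus strand): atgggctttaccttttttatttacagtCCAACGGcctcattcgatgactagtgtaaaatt
CYCB1;3 (AT3G11520, chr3:3627305-3627364, minus strand): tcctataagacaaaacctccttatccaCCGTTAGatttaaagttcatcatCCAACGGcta
CYCB2;1 (AT2G17620, chr2:7663941-7664000, plus strand): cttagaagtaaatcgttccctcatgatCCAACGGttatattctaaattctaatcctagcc
CYCB2;2 (AT4G35620, chr4:16901397-16901456, plus strand): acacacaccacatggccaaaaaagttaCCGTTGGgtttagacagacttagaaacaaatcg
CYCB2;3 (AT1G20610, chr1:7137864-7137923, minus strand): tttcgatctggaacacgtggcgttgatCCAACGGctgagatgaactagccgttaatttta

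This core stood before the start of 6 of 8 B-type cyclins and of CYCA1;1 (AT1G44110), again 7 of 49 members or 14.3%, against 4.5% of all genes. The shorter core AACGG, which lies inside the longer one, was in 36.7% of members and 20.6% of all genes. In the window of 500 bases before the start codon, CNAACGG was found in all 8 B-type cyclins and in 8.19% of all genes.

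**Figure D1:**
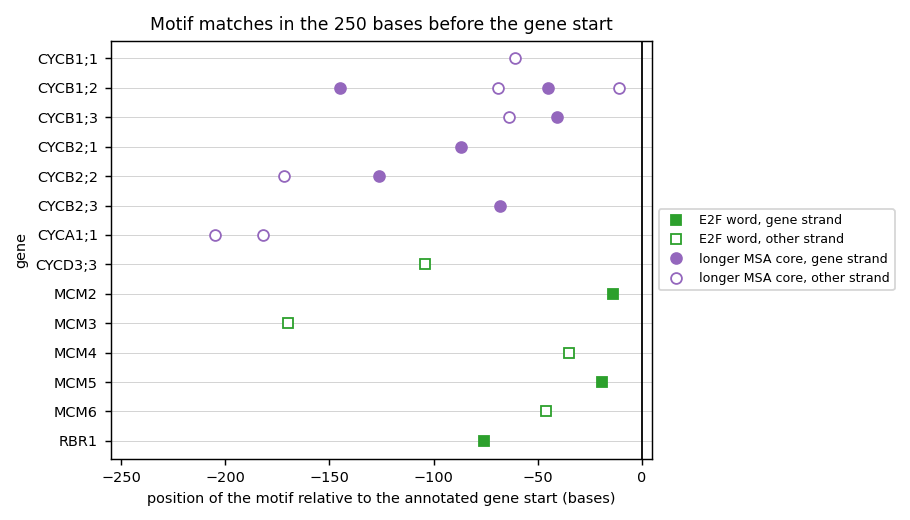
Positions of motif matches in the 250 bases before the annotated gene start (x axis, bases; 0 is the start) for each of the 14 members with a match (y axis), squares for E2F words and circles for CNAACGG, filled on the gene's strand and open on the other. The E2F words sit at MCM genes, RBR1 and 1 D-type cyclin, and the CNAACGG cores at 6 B-type cyclins and 1 A-type cyclin.

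Library totals ran from 6410046 to 7723602 counts, of which the members took 0.0609% to 0.0697%. Chi-square per degree of freedom within a group was 4.81 at 1000 µM, 1.8 in the controls and 1.71 at 100 µM, so the libraries of the higher dose were the least alike. Levels are in CPM (counts relative to the total of their library, after TMM scaling), and changes on the log2 scale ± the standard error from edgeR's quasi-likelihood test. A gene is said to rise or fall when its adjusted p (Benjamini-Hochberg over all 18380 genes tested) was under 0.05. Where libraries of groups are said to lie apart, this is a description. The share of all genes whose libraries lie apart in the same way was not counted. Of the 49 members 46 had enough counts to be tested, all but CYCB2;1, CYCA2;1 and KRP3.

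At 100 µM the one cell cycle gene that passed the test was TSO2, of ribonucleotide reductase, which rose. At 1000 µM TSO2, RNR1, RBR1 and CDKA;1 rose, and 4 cyclins of the A, B and D types, CDKB2;1, KRP1, KNOLLE and CDC20.1 fell. In numbers, 1 of 46 members rose at 100 µM (2.17%, against 1.79% of all genes) and 0 fell (against 1.53% of all genes). There an unadjusted p under 0.05 was found for 7 of the 46 members and for 2807 of 18380 genes overall. At 1000 µM 4 members rose (8.7%, against 15.2% of all genes) and 8 fell (17.4%, against 14.5%). These shares lie near or below those of all genes and are no result about the members as a class. The median log2 change of the tested members was 0.07 at 100 µM and -0.18 at 1000 µM, against -0.01 and -0.01 over all genes tested.

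The 1000 µM libraries were also compared with the 100 µM libraries. There 1 member rose (CDKA;1, against 8.65% of all genes rising) and 4 fell, which is 8.7% against 7.3% of all genes, with a median log2 change of -0.27. The 3 comparisons share libraries, so their counts are not independent of each other.

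**Figure D2:**
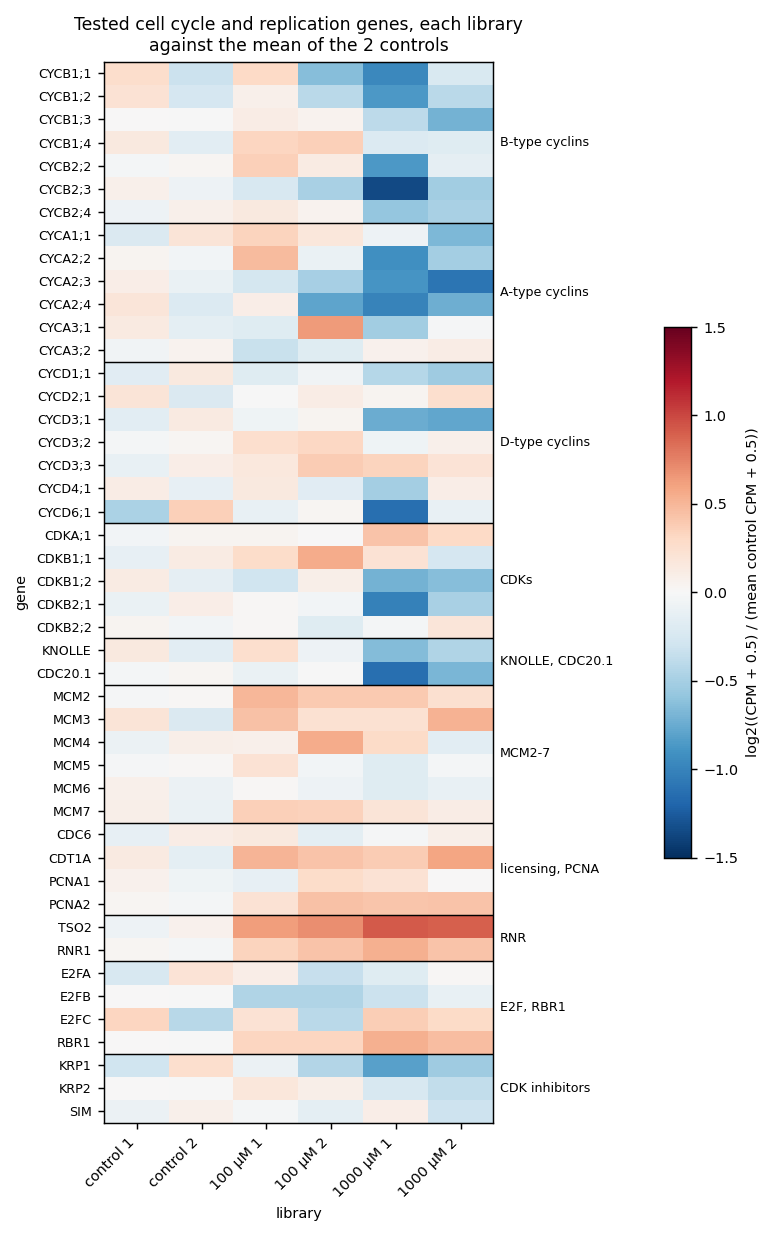
Level of each of the 46 tested members (rows, by role) in each of the 6 libraries (columns) as the log2 ratio of CPM + 0.5 to the mean control CPM + 0.5, red above and blue below the controls. Blue fills most of the B-type and A-type cyclin rows at 1000 µM, and TSO2, RNR1 and RBR1 are red in all 4 treated libraries.

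Ribonucleotide reductase makes the deoxynucleotides for DNA synthesis, and both of its listed genes were higher in all 4 treated libraries than in either control. TSO2 (AT3G27060), a small subunit, stood at 41.9 and 46.3 CPM in the controls, 68.6 and 71.6 CPM at 100 µM, and 83.8 and 82.8 CPM at 1000 µM. The 3 groups did not overlap, and their order followed the dose, but the change between the doses was not called (edgeR, adjusted p = 0.106). TSO2 rose at 100 µM by 0.67 ± 0.11 on the log2 scale (1.59-fold, adjusted p = 0.00135) and at 1000 µM by 0.92 ± 0.10 (1.89-fold, adjusted p = 2.96e-06). The call at 100 µM was lost without control replicate 1 (adjusted p = 0.0595) or without 100 µM replicate 2 (adjusted p = 0.0661), whereas the call at 1000 µM held under every alternative run.

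RNR1 (AT2G21790), the large subunit, stood at 53.8 and 51.7 CPM in the controls, 66.4 and 71.3 CPM at 100 µM, and 76.9 and 71.3 CPM at 1000 µM. Both doses lay above the controls, and the doses touched each other at 71.3 CPM. It rose at 1000 µM by 0.49 ± 0.10 (1.4-fold, adjusted p = 0.00154), a call that held under every alternative, while the change at 100 µM was 0.38 ± 0.10 (adjusted p = 0.0528). That adjusted p fell to 0.00403 and 0.00419 without 1000 µM replicate 1 or 2. Summed over both genes, the level was 95.8 and 98.0 CPM in the controls, 135 and 143 CPM at 100 µM, and 161 and 154 CPM at 1000 µM. A further small-subunit gene, RNR2A (AT3G23580), is outside the members and outside this sum. It stood at 21.0 and 18.7 CPM in the controls, 24.0 and 22.2 CPM at 100 µM, and 23.1 and 19.3 CPM at 1000 µM. RNR2A did not pass edgeR's test in any comparison (adjusted p = 0.664 at 1000 µM against the controls). TSO2 overlaps AT3G27050 in the annotation, which went the other way without passing the test, from a mean of 24.3 to 18.7 CPM at 1000 µM (adjusted p = 0.0655).

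RBR1 (AT3G12280), the repressor of E2F factors, stood at 39.4 and 39.4 CPM in the controls, 49.4 and 49.6 CPM at 100 µM, and 57.0 and 54.4 CPM at 1000 µM. Here too the groups did not overlap and followed the dose, but the change between the doses was not called (edgeR, adjusted p = 0.302). RBR1 rose at 1000 µM by 0.50 ± 0.11 (1.41-fold, adjusted p = 0.00163), under every alternative, and its change at 100 µM was 0.33 ± 0.11 (adjusted p = 0.123). Without 1000 µM replicate 1 or 2 that change passed the test (adjusted p = 0.0294 and 0.031). AT3G12270, which overlaps RBR1, also rose at 1000 µM, from a mean of 18.9 to 28.9 CPM (adjusted p = 0.00649, and 0.0675 without control replicate 2). Whether reads of one were counted for the other was not tested.

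The 3 E2F genes did not pass the test in any comparison. E2FA (AT2G36010), an activator, ran from 4.04 to 6.15 CPM over the 6 libraries. E2FB (AT5G22220), the other activator, stood at 5.53 and 5.47 CPM in the controls, 3.88 and 3.88 CPM at 100 µM, and 4.29 and 5.06 CPM at 1000 µM, so that all 4 treated libraries lay below both controls. E2FC (AT1G47870), a repressor, ran from 4.92 to 8.86 CPM, and its controls, at 8.59 and 4.92 CPM, spanned nearly that whole range. At 1000 µM, where 14.5% of all genes fell, 1 of 4 tested genes for DP partners and atypical E2F factors outside the members did so. It was DPA (AT5G02470), a partner of E2F proteins, which had 7.01 ± 1.41 CPM without melatonin and 4.0 ± 0.957 CPM at 1000 µM (mean ± SD, n = 2, adjusted p = 0.0394). DPA was not called in 7 of the alternatives, among them those without control replicate 1 (adjusted p = 0.288), 100 µM replicate 1 or 2 (adjusted p = 0.0612 and 0.0584) and 1000 µM replicate 1 (adjusted p = 0.188).

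The MCM2 to MCM7 subunits form the ring-shaped helicase that unwinds DNA at replication forks. None of the 6 genes passed edgeR's test at either dose, and 2 of them had an unadjusted p under 0.05 at 100 µM and 0 at 1000 µM. Over all 18380 genes, 2807 had such a p at 100 µM and 7396 at 1000 µM. MCM2 (AT1G44900) stood at 12.2 and 12.4 CPM in the controls, 17.6 and 16.3 CPM at 100 µM, and 16.3 and 14.7 CPM at 1000 µM. MCM7 (AT4G02060) stood at 20.4 and 17.9 CPM in the controls, 24.8 and 24.4 CPM at 100 µM, and 21.9 and 20.7 CPM at 1000 µM. In both genes all 4 treated libraries lay above both controls. AT4G02050, which overlaps MCM7, fell at 1000 µM, from a mean of 34.9 to 24.9 CPM (edgeR, adjusted p = 0.00612). That call was lost with DESeq2 and without control replicate 1. Whether reads of AT4G02050 and MCM7 were counted for each other was not tested.

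MCM3 (AT5G46280) had 11.6 and 8.61 CPM in the controls and 11.9 to 14.8 CPM in the 4 treated libraries. MCM4 (AT2G16440) ran from 12.1 to 20.4 CPM with the groups overlapping. MCM5 (AT2G07690) ran from 16.2 to 21.5 CPM and MCM6 (AT5G44635) from 9.0 to 10.9 CPM, also with overlap. Summed over the 6 genes, the level was 86.2 and 81.7 CPM in the controls, 103 and 101 CPM at 100 µM, and 92.1 and 89.8 CPM at 1000 µM, so that the sum was highest at the lower dose. The median log2 change of the 6 genes was 0.35 at 100 µM (0.21 without control replicate 2) and 0.11 at 1000 µM (0.05 without 1000 µM replicate 1 and 0.23 without 1000 µM replicate 2).

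CDC6 and CDT1A load the helicase onto origins, and PCNA is the ring that clamps DNA polymerase to its template. Their 4 genes did not pass the test at either dose, and all 4 had positive fitted changes at both. PCNA2 (AT2G29570) stood at 12.8 and 12.3 CPM in the controls, 14.6 and 17.2 CPM at 100 µM, and 16.9 and 17.1 CPM at 1000 µM, a change of 0.44 ± 0.16 at 1000 µM (adjusted p = 0.0503, and 0.0456 with RLE in place of TMM scaling). CDT1A (AT2G31270) had 6.11 and 4.92 CPM in the controls and 7.34 to 8.60 CPM in the 4 treated libraries. PCNA1 (AT1G07370), whose sequence is close enough to that of PCNA2 for reads to be shared, ran from 8.5 to 11.3 CPM with overlap. CDC6 (AT2G29680) stayed at 1.86 to 2.39 CPM.

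Of other genes of DNA replication, 11 were tested, for origin recognition, licensing, polymerases, fork proteins and ribonucleotide reductase (RNR2A). Of these, 0 passed edgeR's test at either dose (0 had an unadjusted p under 0.05 at 100 µM and 1 at 1000 µM). Over all 18380 genes, 2807 had such a p at 100 µM and 7396 at 1000 µM. CDT1B (AT3G54710), a second licensing gene, fell between the doses, with a mean of 4.28 ± 0.984 CPM at 100 µM and 1.84 ± 0.443 CPM at 1000 µM (SD, n = 2, adjusted p = 0.0356). It was not called without 100 µM replicate 1 (adjusted p = 0.0833), without 100 µM replicate 2 (adjusted p = 0.29), without 1000 µM replicate 1 (adjusted p = 0.142) or with DESeq2 (adjusted p = 0.205). The 5 genes for histone H3.1, which is laid down during replication, also gave 0 calls. Of the 5, 2 had an unadjusted p under 0.05 at 100 µM, where 2807 of 18380 genes had one, and 0 at 1000 µM. The one with the smallest p at 1000 µM, AT5G65360, had 62.6 and 58.8 CPM in the controls, 77.8 and 72.9 CPM at 100 µM, and 68.1 and 71.2 CPM at 1000 µM. The summed level of the 5 genes was 147 and 142 CPM in the controls, 179 and 174 CPM at 100 µM, and 149 and 165 CPM at 1000 µM.

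**Figure D3:**
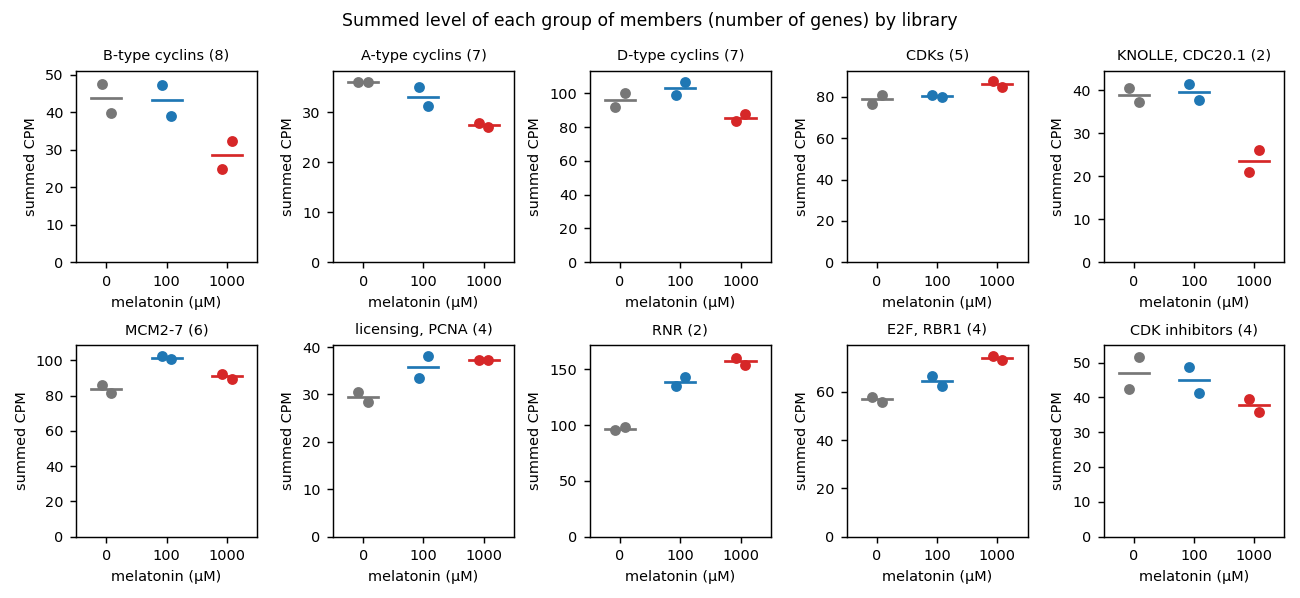
Summed CPM of each role group of members (panels, with the number of genes) in every library (points) by melatonin dose (x axis, µM), with the group mean as a line and the y axis from 0. Ribonucleotide reductase and the E2F and RBR1 group are highest at 1000 µM, and the MCM sum is highest at 100 µM. The sums of B-type and A-type cyclins and of KNOLLE with CDC20.1 are lowest at 1000 µM. RBR1 alone gives a mean of 39.4 CPM of its group in the controls and 55.7 CPM at 1000 µM, and no E2F gene passed edgeR's test.

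B-type cyclins bind CDKs from G2 into mitosis and are broken down at its end. At 1000 µM the fitted change was below 0 in all 7 tested genes, where 9408 of 18380 genes overall were below 0. But 1 of the 7 passed the test, where 14.5% of all genes fell. The median log2 change of the 7 genes was -0.61 at 1000 µM (from -0.89 to -0.41 when each library was left out in turn) and 0.09 at 100 µM. Summed over the 8 genes, the level was 47.6 and 39.9 CPM in the controls, 47.3 and 39.1 CPM at 100 µM, and 24.9 and 32.4 CPM at 1000 µM, with no overlap between the higher dose and the other libraries. Of the 2 libraries at 1000 µM, replicate 1 was the lower in 6 of the 7 genes.

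The gene that fell was CYCB2;3 (AT1G20610), at 8.30 and 7.38 CPM in the controls, 6.56 and 5.44 CPM at 100 µM, and 2.77 and 5.31 CPM at 1000 µM. Both libraries of the higher dose lay below all others, and they differed from each other. The change was -0.94 ± 0.29 (0.522-fold, adjusted p = 0.0206). It was lost with DESeq2 (adjusted p = 0.114), without control replicate 1 (adjusted p = 0.117), without control replicate 2 (adjusted p = 0.0533) and without 1000 µM replicate 1 (adjusted p = 0.165), where the log2 change was -0.55.

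The most abundant B-type cyclin by CPM per kilobase of exon in the controls was CYCB1;2 (AT5G06150), at 13.7 and 9.70 CPM there, 12.4 and 8.70 CPM at 100 µM, and 6.23 and 8.72 CPM at 1000 µM. Its change at 1000 µM was -0.63 ± 0.24 (adjusted p = 0.0567), and the second library there overlapped those at 100 µM. It passed the test without control replicate 2 (adjusted p = 0.0342) and without 1000 µM replicate 2 (adjusted p = 0.0122). CYCB1;1 (AT4G37490), known as a reporter of cells in G2 and M phase, had low and scattered levels of 3.93 and 2.46 CPM in the controls, 4.03 and 1.86 CPM at 100 µM, and 1.38 and 2.65 CPM at 1000 µM.

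Of the others, AT3G11520 (CYCB1;3) had 5.06 to 5.52 CPM in the controls and at 100 µM and 2.91 to 3.74 CPM at 1000 µM. AT1G76310 (CYCB2;4) had 4.51 to 5.37 CPM in those 4 libraries and 3.05 to 3.29 CPM at the higher dose. In both genes the higher dose lay apart from the rest without passing the test. AT2G26760 (CYCB1;4) ran from 6.09 to 9.17 CPM and AT4G35620 (CYCB2;2) from 1.25 to 3.58 CPM, both lowest at 1000 µM. AT2G17620 (CYCB2;1), which was too low to test, had 1.60 and 1.23 CPM in the controls, 0.895 and 0.777 CPM at 100 µM, and 0.415 and 0.885 CPM at 1000 µM.

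The A-type cyclins act from S phase to mitosis, and those of the CYCA2 class hold back endoreduplication. In the same comparison 5 of 6 tested genes had changes below 0 at 1000 µM, and the median was -0.63. Of the 6 genes 1 passed the test, where 14.5% of all genes fell. The gene that fell was CYCA2;3 (AT1G15570), at 8.73 and 7.52 CPM in the controls, 6.71 and 5.59 CPM at 100 µM, and 4.15 and 3.54 CPM at 1000 µM. Its groups did not overlap and went down with dose, but the change between the doses was not called (edgeR, adjusted p = 0.102). The change at 1000 µM was -1.08 ± 0.26 (0.474-fold, adjusted p = 0.00408), and the call held under every alternative run, with the highest adjusted p at 0.0479.

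AT1G80370 (CYCA2;4) stood at 5.68 and 4.24 CPM in the controls, 5.37 and 2.64 CPM at 100 µM, and 2.22 and 2.78 CPM at 1000 µM, a change of -0.97 ± 0.36 (adjusted p = 0.0516). It was on either side of the threshold over the alternatives, with adjusted p from 0.017 without a filter on low counts to 0.284. AT5G11300 (CYCA2;2) was at 2.33 to 3.73 CPM in the controls and at 100 µM and at 1.11 and 1.64 CPM at 1000 µM. AT5G25380 (CYCA2;1) was not tested, with 0.146 to 0.554 CPM.

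AT1G44110 (CYCA1;1), the A-type cyclin with a CNAACGG core before its start, had 5.24 and 7.11 CPM in the controls, 7.90 and 6.99 CPM at 100 µM, and 5.82 and 3.67 CPM at 1000 µM. Its change between the doses was -0.66 ± 0.28 (adjusted p = 0.122, and 0.0296 without 1000 µM replicate 1). AT5G43080 (CYCA3;1) had 0.831 to 2.49 CPM. AT1G47210 (CYCA3;2), of the class linked to S phase, was the one A-type cyclin tested that was not lower at 1000 µM, with 13.2 and 13.5 CPM there, 12.1 and 13.0 CPM in the controls and 9.84 and 11.03 CPM at 100 µM.

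CDKA;1 (AT3G48750) is the kinase of the whole cycle and had the highest level per kilobase of exon among the members, at 33.9 CPM per kb in the controls. It stood at 49.5 and 52.1 CPM in the controls, 52.3 and 50.8 CPM at 100 µM, and 68.3 and 62.3 CPM at 1000 µM, where both libraries lay above all others. It rose at 1000 µM against the controls by 0.36 ± 0.10 (1.28-fold, adjusted p = 0.0143) and against 100 µM by 0.34 ± 0.10 (adjusted p = 0.0348). The first call was lost with DESeq2 (adjusted p = 0.072) and without control replicate 1 or 2 (adjusted p = 0.135 and 0.0681). The second was lost with DESeq2 (adjusted p = 0.166), with the replicate number as a block (adjusted p = 0.0562), with only these groups in the fit (adjusted p = 0.0668), and in 5 of 6 fits without a library (adjusted p up to 0.215), which left out either control, either 100 µM library or 1000 µM replicate 1.

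The CDKB kinases are specific to plants and act around G2 and mitosis. CDKB2;1 (AT1G76540) stood at 14.0 and 16.1 CPM in the controls, 15.2 and 14.6 CPM at 100 µM, and 7.20 and 10.6 CPM at 1000 µM, with no overlap between the higher dose and the rest. It fell against the controls by 0.75 ± 0.20 on the log2 scale (0.595-fold, adjusted p = 0.00787) and against 100 µM by 0.73 ± 0.20 (adjusted p = 0.017). Against the controls it was not called with DESeq2 (adjusted p = 0.061), without control replicate 2 (adjusted p = 0.0852) or without 1000 µM replicate 1 (adjusted p = 0.065, log2 change -0.50). Against 100 µM it was not called with DESeq2 (adjusted p = 0.105), without 100 µM replicate 1 or 2 (adjusted p = 0.135 and 0.0898) or without 1000 µM replicate 1 (adjusted p = 0.105, log2 change -0.48).

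Its close relative AT1G20930 (CDKB2;2) did not share this pattern of levels, with 5.44 to 6.40 CPM over controls and 100 µM libraries and 6.09 and 7.08 CPM at 1000 µM. The difference between both genes was not tested. AT2G38620 (CDKB1;2) was at 2.39 to 3.35 CPM in those 4 libraries and at 1.66 and 1.77 CPM at 1000 µM, without passing the test. AT3G54180 (CDKB1;1) ran from 3.16 to 5.90 CPM, highest at 100 µM. Of 10 tested genes for other CDKs, cyclins and their regulators outside the members, 0 passed edgeR's test in any comparison, and 0 had an unadjusted p under 0.05. The one with the smallest p at 1000 µM was CDKF;1 (AT4G28980), a kinase that activates other CDKs, with 28.8 to 31.5 CPM over controls and 100 µM libraries and 35.9 and 32.7 CPM at 1000 µM.

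CDC20.1 (AT4G33270) activates the anaphase-promoting complex, which marks mitotic cyclins for breakdown. It stood at 18.6 and 19.5 CPM in the controls, 17.7 and 19.0 CPM at 100 µM, and 8.45 and 11.6 CPM at 1000 µM, where both libraries lay well below the other 4. It fell against the controls by 0.92 ± 0.17 on the log2 scale (0.529-fold, adjusted p = 0.000645) and against 100 µM by 0.86 ± 0.18 (adjusted p = 0.00257). Both calls held under every alternative run, with the highest adjusted p at 0.00857 and 0.044. CDC20.2 (AT4G33260), its near copy with which reads could be shared, was no member and also fell, from 7.36 ± 1.13 CPM to 4.19 ± 1.23 CPM at 1000 µM (SD, n = 2, adjusted p = 0.0354). That call was lost in 8 of the alternatives, among them those without control replicate 1 (adjusted p = 0.229), control replicate 2 (adjusted p = 0.0552), 100 µM replicate 1 (adjusted p = 0.0559), 100 µM replicate 2 (adjusted p = 0.052) and 1000 µM replicate 1 (adjusted p = 0.201).

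KNOLLE (AT1G08560), the syntaxin that fuses vesicles into the cell plate at cytokinesis, stood at 22.0 and 17.8 CPM in the controls, 23.7 and 18.8 CPM at 100 µM, and 12.5 and 14.4 CPM at 1000 µM. The higher dose lay below the other 4 libraries. It fell against the controls by 0.56 ± 0.17 on the log2 scale (0.679-fold, adjusted p = 0.0203) and against 100 µM by 0.66 ± 0.17 (adjusted p = 0.0133). The first call was lost with DESeq2 (adjusted p = 0.127), without control replicate 1 (adjusted p = 0.22) and without 1000 µM replicate 1 (adjusted p = 0.075), and the second with DESeq2 (adjusted p = 0.0862) and without 100 µM replicate 1 (adjusted p = 0.232). AT1G08550, which overlaps KNOLLE, went from a mean of 57.0 CPM in the controls to 51.2 CPM at 1000 µM without passing the test.

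Outside the members, 18 genes of mitosis and cytokinesis were tested, of which 3 fell at 1000 µM and 0 rose, where 14.5% of all genes fell, so the count is no result about the group. Their median log2 change was -0.47, with 16 of 18 below 0, against 9408 of 18380 genes overall. Besides CDC20.2, FZR3 (AT5G13840), another activator of the anaphase-promoting complex, fell from 13.0 ± 1.38 to 6.5 ± 1.36 CPM (mean ± SD with n = 2, adjusted p = 0.00158) under every alternative. PAKRP1L (AT3G23670), a kinesin of the phragmoplast, fell from 10.08 ± 0.0501 to 5.6 ± 0.481 CPM (adjusted p = 0.00717, and 0.0802 with DESeq2). MYB3R4 (AT5G11510), a factor that binds the AACGG core, fell between the doses from 9.39 ± 1.89 to 4.91 ± 0.690 CPM (adjusted p = 0.0192). MYB3R4 was not called without 100 µM replicate 2 (adjusted p = 0.222), without 1000 µM replicate 2 (adjusted p = 0.0544) or with DESeq2 (adjusted p = 0.117). At 100 µM 0 of the 18 genes passed edgeR's test, and 2 had an unadjusted p under 0.05, against 2807 of 18380 genes overall.

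**Figure D4:**
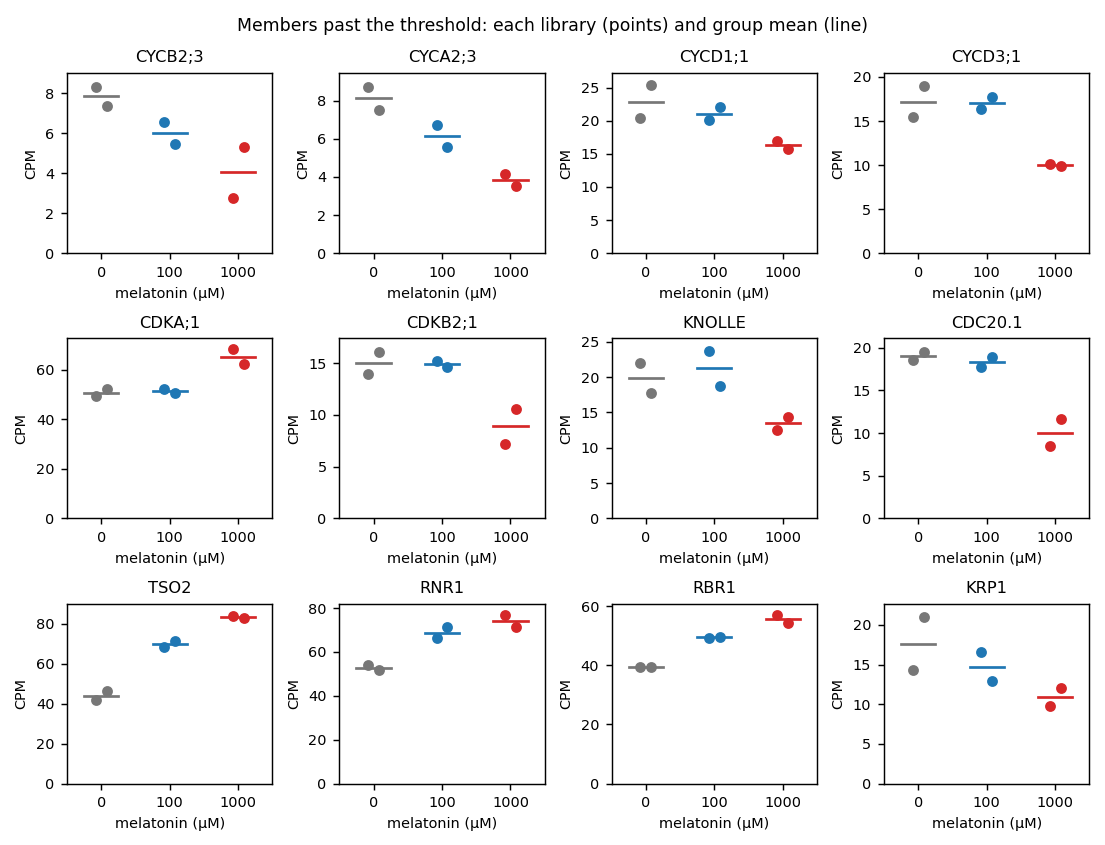
CPM (y axis, from 0) of the 12 members past the threshold at 1000 µM, in each library (points) by melatonin dose (x axis, µM) with the group mean as a line. CDKA;1, TSO2, RNR1 and RBR1 are above both controls at 1000 µM and the other 8 are below them, while at 100 µM TSO2, RNR1 and RBR1 are already above the controls.

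D-type cyclins link the cycle to sugars and hormones. Of 7 tested genes 2 fell at 1000 µM, where 14.5% of all genes fell, and 0 rose. CYCD3;1 (AT4G34160), a cyclin induced by cytokinin, stood at 15.4 and 19.0 CPM in the controls, 16.4 and 17.7 CPM at 100 µM, and 10.11 and 9.86 CPM at 1000 µM, where both libraries lay below the other 4. It fell against the controls by 0.79 ± 0.17 on the log2 scale (0.579-fold, adjusted p = 0.00211) and against 100 µM by 0.77 ± 0.17 (adjusted p = 0.00513). Without control replicate 2 the first adjusted p was 0.0538, and without 100 µM replicate 2 the second was 0.0679. AT4G34150, which overlaps it, rose from a mean of 108 to 145 CPM at 1000 µM (adjusted p = 0.022, and 0.197 and 0.206 without control replicate 2 and without 1000 µM replicate 1).

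AT5G67260 (CYCD3;2) and AT3G50070 (CYCD3;3) are the closest relatives of that gene. The first had 25.9 and 26.9 CPM in the controls, 31.5 and 32.8 CPM at 100 µM, and 25.2 and 27.8 CPM at 1000 µM. The second had 10.6 and 12.4 CPM in the controls and 13.0 to 15.2 CPM in the 4 treated libraries. Neither passed the test, and neither had both 1000 µM libraries below both controls as CYCD3;1 did, although the difference between the genes was not tested.

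CYCD1;1 (AT1G70210) fell at 1000 µM, with 20.4 and 25.4 CPM in the controls, 20.13 and 22.1 CPM at 100 µM, and 16.9 and 15.7 CPM at the higher dose. The higher dose lay below the rest, and the change was -0.49 ± 0.15 (0.71-fold, adjusted p = 0.0208). It was lost with DESeq2 (adjusted p = 0.159), without control replicate 2 (adjusted p = 0.272, log2 change -0.32) and without 1000 µM replicate 2 (adjusted p = 0.0537). AT2G22490 (CYCD2;1) ran from 12.3 to 17.2 CPM with overlap. AT5G65420 (CYCD4;1) at 1.25 to 2.24 CPM and AT4G03270 (CYCD6;1), a cyclin of formative root divisions, at 0.554 to 2.46 CPM were low in all libraries.

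CDK inhibitors slow the cycle by binding CDKs and their cyclins. KRP1 (AT2G23430) stood at 14.3 and 21.0 CPM in the controls, 16.6 and 12.9 CPM at 100 µM, and 9.83 and 12.0 CPM at 1000 µM, where both libraries were below the other 4. It fell by 0.69 ± 0.20 on the log2 scale (0.619-fold, adjusted p = 0.0157). Without control replicate 2, the higher of the controls, the change was -0.38 (adjusted p = 0.296). It was also not called without 1000 µM replicate 1 (adjusted p = 0.0562) or with DESeq2 (adjusted p = 0.0887).

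KRP2 (AT3G50630) had 6.99 and 6.97 CPM in the controls, 7.90 and 7.46 CPM at 100 µM, and 5.82 and 5.31 CPM at 1000 µM, apart from the rest but not past the test. SIM (AT5G04470), which holds trichome cells out of mitosis, ran from 17.4 to 23.4 CPM, and both extremes were libraries at 1000 µM. KRP3 (AT5G48820) was too low to test, with 4 counts in either control, 20 and 9 counts at 100 µM, and 3 and 9 counts at 1000 µM. At 1000 µM, where 14.5% of all genes fell, 1 of 9 tested inhibitor genes outside the members did so. It was AT5G40460, of the family of SIM, which had 2.88 ± 0.370 CPM without melatonin and 1.33 ± 0.273 CPM at 1000 µM (mean ± SD, n = 2, adjusted p = 0.0494), and the call was lost under every alternative (adjusted p from 0.0516 to 0.266).

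**Figure D5:**
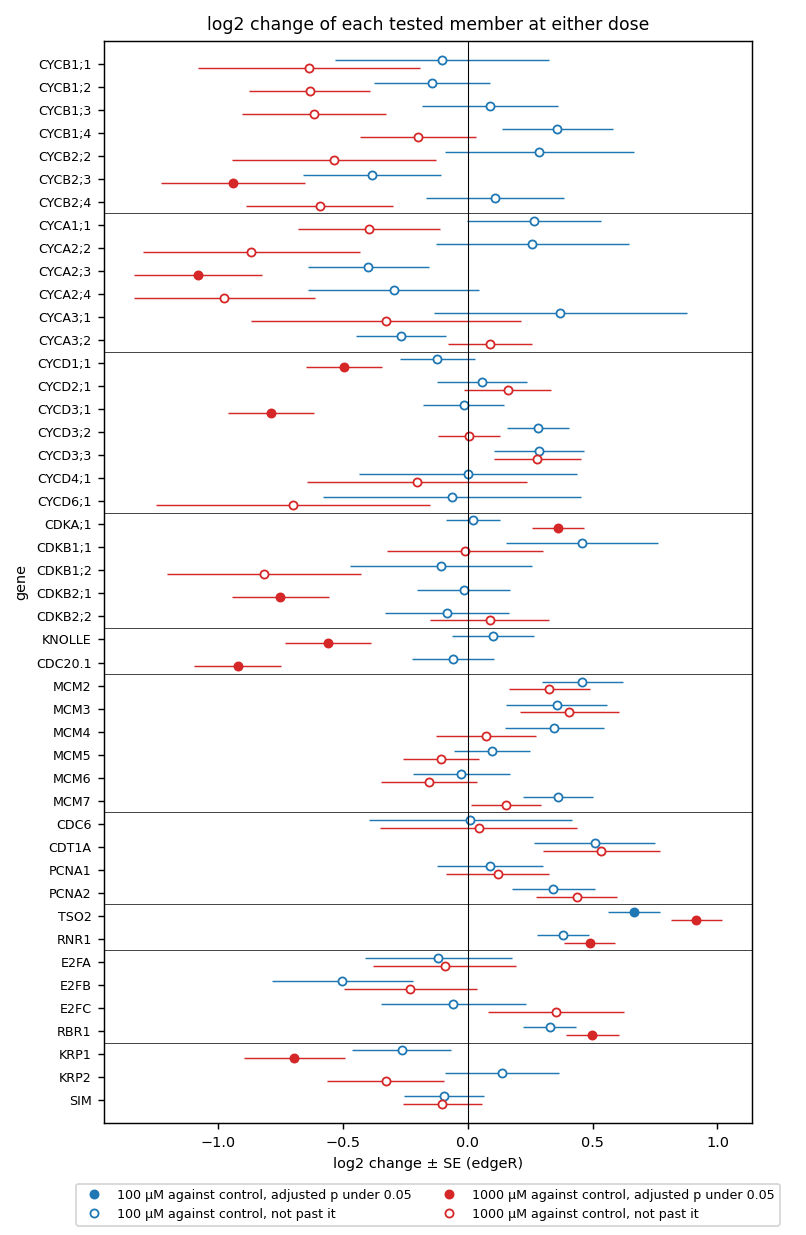
log2 change ± standard error (x axis) of each of the 46 tested members (y axis, by role) at 100 µM (blue) and 1000 µM (red) against the controls, filled where the adjusted p was under 0.05. At 1000 µM all 7 B-type cyclins lie left of 0 with 1 filled, and the MCM genes have no filled point at either dose. The same 2 controls enter both colours.

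Levels between genes were compared per kilobase of exon in the controls. After CDKA;1 came SIM at 27.5, TSO2 at 26.1, RNR1 at 17.6 and CYCD3;2 at 15.7 CPM per kb, and the lowest was CYCA2;1 at 0.178 CPM per kb. At 1000 µM TSO2, at 49.2 CPM per kb, stood above CDKA;1, at 43.6 CPM per kb. The MCM genes lay between 3.33 CPM per kb (MCM3) and 7.23 CPM per kb (MCM7) in the controls, and the B-type cyclins between 0.853 (CYCB2;1) and 6.40 CPM per kb (CYCB1;2).

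Markers of dividing and of other tissues were read beside these genes. Leaf mesophyll genes, which the leaf label calls for, were above 3 counts in every library in 6 of 6 cases. At 1000 µM 5 of the 6 fell, where 14.5% of all genes fell. The summed level of the 6 genes was 18823 and 20472 CPM in the controls and 18256 and 17744 CPM at 100 µM. At 1000 µM it was 12636 and 11442 CPM. Of 11 genes of the shoot meristem and young leaf 7 were tested and 0 passed edgeR's test at 1000 µM (1 unadjusted p under 0.05), CLV3 was at 0 counts in all libraries, and the sum was 147 and 149 CPM in the controls, 151 and 157 CPM at 100 µM, and 145 and 141 CPM at 1000 µM. Root genes were also present, 7 of 10 with over 3 counts in every library, among them PYK10 and the root hair genes EXPA7 and COBL9. This does not accord with rosette leaves alone, and whether other tissue was included is not stated in the labels. The root tip genes WOX5, PLT1 and PLT2 did not reach that level, with 2 to 12, 1 to 6 and 1 to 5 counts over the 6 libraries. Of 8 tested root genes 6 fell at 1000 µM, where 14.5% of all genes fell. The sum of the 10 root genes was 3273 and 3405 CPM in the controls, 3140 and 3204 CPM at 100 µM, and 2066 and 2111 CPM at 1000 µM. PYK10 gave a mean of 3246 CPM of it in the controls and 2028 CPM at 1000 µM. Of 6 tested genes of the stomatal lineage, whose cells divide in young leaves, 2 rose at 1000 µM and 0 fell. Of all genes 15.2% rose there. The sum of the 7 listed genes was 57.3 and 48.2 CPM in the controls, 60.8 and 55.6 CPM at 100 µM, and 76.3 and 68.0 CPM at 1000 µM. Within it, TOO MANY MOUTHS (AT1G80080) gave a mean of 16.1 CPM in the controls and 31.5 CPM at 1000 µM. The part of these tissues in the changes of the cell cycle genes was not tested.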

How the data were processed

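RNA of 6 libraries (3 groups of 2, grouped by the treatment in the labels) was analysed from the deposited table, whose values are whole, unnormalised read counts of genes. The submitters' processing notes name Bowtie2 2.2.3, TopHat2 2.0.12, HTSeq 0.6.1, DESeq 1.18.0 and the build TAIR10. Their roles, options and strand setting are not stated there. Without strand, reads of overlapping genes cannot be told apart, and 16 of the 49 members overlap another gene.

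Counts were fitted in R 4.3.3 with edgeR 4.0.16 (filterByExpr, which kept 18380 genes and removed 14298, TMM scaling, glmQLFit and glmQLFTest, two-sided, 3 groups as the only term). The fit had 3 residual and 14.1 prior degrees of freedom and a biological coefficient of variation of 7.78%. Standard errors are the size of the log2 change over the square root of F. Tested on simulated counts for 1000 µM against the controls over 18380 genes, the procedure recovered 38%, 86%, 92% and 98% of 50 genes each changed by 0.5, 1, 2 and 3 on the log2 scale. It also called 5 unchanged genes. The simulation gave all groups the same spread and changed far fewer genes than were called in the data. Its shares therefore need not hold for these libraries.

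Alternatives were DESeq2 1.42.0, RLE scaling, no filter, only the groups compared, the replicate number as a block, and leaving out each library. The members and lists were chosen with earlier results of these data known. All 49 members are named. Of each further list the text names up to 4 genes with the smallest adjusted p at 1000 µM among those past the threshold in any comparison, and of lists with none the gene with the smallest p. RNR2A, the stomatal lineage genes that were not called, and the untested SMR4, SMR5, SMR7 and NAC103 are named in addition. Markers of root, mesophyll and meristem are given mainly as counts and sums. Symbols, gene overlaps and sequences are from RefSeq's TAIR10.1, where 31912 of 32678 identifiers were found.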

Additional observations from a re-analysis of the deposited data

How the results depend on the processing

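Of 138 pairs of a member and a comparison, 18 were called, and 6 of these kept the call under every alternative: TSO2, RNR1, RBR1 and CYCA2;3 at 1000 µM against the controls, and CDC20.1 against both the controls and 100 µM. None of the 18 turned its direction, whereas 41 pairs that were not called did so in some alternative. DESeq2 ended 9 calls, leaving out a library ended 12 in at least one fit, and the cause was not tested.

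At 100 µM against the controls 610 genes and 1 member were called. The counts were 334 genes with DESeq2, 1091 genes and 2 members without a filter on low counts, and 1697 genes and 3 members with only these groups fitted. Leaving out each library gave 101 to 1757 genes and 0 to 4 members. At 1000 µM against the controls 5442 genes and 12 members were called. DESeq2 called 3188 genes and 6 members, and leaving out a library gave 3318 to 6684 genes and 7 to 13 members, the fewest members without control replicate 2. Between the doses 2932 genes and 5 members were called, 1567 and 2 with DESeq2, and 1158 to 4442 genes and 2 to 7 members when a library was left out.

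A window of 500 bases before the start codon, in place of 250 before the gene start, was added after seeing the data. With it, E2F words were in 100% of the MCM genes (83.3% before). They were also in 100% of the listed ribonucleotide reductase genes (0% before). CNAACGG was in 100% of the listed B-type cyclins (75% before).

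Same-numbered libraries did not deviate together (correlations of 0.03, -0.03 and -0.07). With 2 libraries per group this cannot exclude that libraries were paired. With the replicate block 446, 4959 and 2508 genes and 1, 12 and 4 members were called in the 3 comparisons. In the simulated counts, with 2 libraries per group, 38% of changes of 0.5 on the log2 scale were recovered, a share that need not hold for the data.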

Other observations

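Stomatal lineage genes act in the dividing cells of the young epidermis, and 2 of them rose. TOO MANY MOUTHS (AT1G80080), a receptor-like protein that spaces stomata, stood at 16.6 and 15.6 CPM in the controls, 25.8 and 21.9 CPM at 100 µM, and 35.2 and 27.8 CPM at 1000 µM. The groups did not overlap, and the change at 1000 µM was 0.97 ± 0.15 on the log2 scale (edgeR, adjusted p = 0.000113), called under every alternative. EPF1 (AT2G20875), a secreted peptide of late stomatal precursors, had 5 and 3 counts in the controls, 9 counts in either library at 100 µM, and 26 and 16 counts at 1000 µM (adjusted p = 0.00407). It was not called without control replicate 2 (adjusted p = 0.0604) or without 1000 µM replicate 1 (adjusted p = 0.0554).

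Of 12 CDK inhibitor genes outside the members, 3 were too low to test. SMR4 (AT5G02220), a CDK inhibitor of the family of SIM, had 1 and 2 control counts, 2 and 1 counts at 100 µM, and 11 and 3 counts at 1000 µM. SMR7 (AT3G27630), an inhibitor induced by DNA damage, had 1 and 1, 1 and 5, and 6 and 8 counts in the same order. SMR5 (AT1G07500) had 2 and 2, 6 and 2, and 5 and 2 counts. Among genes of the DNA damage response, NAC103 (AT5G64060) was too low to test, with 3 and 2, 4 and 5, and 15 and 8 counts. At 1000 µM, where 14.5% of all genes fell, 1 of 7 tested genes of the DNA damage response did so. It was AT2G31320, which encodes a poly(ADP-ribose) polymerase and went from 10.5 ± 1.06 to 6.34 ± 0.153 CPM (SD, n = 2, edgeR adjusted p = 0.0333). That call was lost without control replicate 1 (adjusted p = 0.189), control replicate 2 (adjusted p = 0.0658) or 1000 µM replicate 1 (adjusted p = 0.0661), and with DESeq2 (adjusted p = 0.18).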
